A study of Mus musculus with 14 samples.

Results

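Acidic chitinase (Chia1) and lysozyme (Lyz2) are 2 of the 22221 genes whose tags were counted in 7 mouse tissues. They were chosen by a rule that takes tags of class codes 1 to 4 whose accession or title names acidic chitinase or lysozyme, summed over the gene cluster the files give. That gave cluster Mm.46418 for Chia1, with 20 tags, and cluster Mm.45436 for Lyz2, with 10 tags. The rule picked the genes for where they are expressed, Chia1 for its sharing between parotid and stomach and Lyz2 for bone marrow. Their levels across tissues are therefore a description and carry no test. Sex played no part in the choice and was tested.

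Both genes encode secreted enzymes that split polysaccharides of other organisms. Acidic chitinase cuts chitin, the polymer of fungal cell walls and of insect and crustacean shells, and stays active in acid, so that it can work in gastric juice as well as in saliva. Lysozyme cuts the peptidoglycan of bacterial cell walls. The mouse has a lysozyme gene used by macrophages, monocytes and neutrophils, Lyz2, and a neighbouring copy, Lyz1, best known from the Paneth cells of the small intestine.

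The series holds 14 libraries of C57BL6 mice, 1 female and 1 male for each of 7 tissues: stomach, parotid gland, pancreas, liver, bone marrow, spinal cord and hippocampus. No treatment, mutation or age is given, and the number of animals behind a library is not stated, so that a spread between libraries may be technical. Total RNA came from the National Human Genome Research Institute, and the cDNA was cut with DpnII, so that a transcript is counted by the 20 bases that begin at a GATC site, usually the last before its 3′ end. For liver, the female title says right lobe and the male title left lobe, though the code of each ends in LL; lobe and sex cannot be told apart there.

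Library totals ran from 2194028 to 3834568 counts, of which 1922511 to 3460794 lay in tags of genes. Levels are in CPM, the usual scaling of a count by depth, with the gene counts of the library as its depth, and intervals in brackets are exact (Clopper-Pearson) 95% intervals that cover counting error only. The tissue labels were checked against markers. The parotid libraries held the parotid secretory protein Bpifa2 at 310298.7 and 284888 CPM. The stomach libraries held the pepsinogen Pgc, a protease precursor of gastric gland cells, at 84495 and 234060.0 CPM, and the marrow libraries held the neutrophil granule protein Ngp at 12758 and 9751 CPM. The stomach pair stood apart from the other 6 pairs in how much its female and male libraries differed, as the sex comparison shows. Stomach also carried summed pancreatic enzyme transcripts of 4954 and 4141 CPM. Spinal cord carried summed erythroid transcripts of 6969 and 7340 CPM.

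The tags that carry the counts are shown because the level of each gene rests almost wholly on a single 20-base sequence. The capitals mark the DpnII site.
Chia1 main tag: GATCagggaaaatttcctct
Chia1 tag at another site: GATCcctgaactttctaagt
Chia1 reverse tag: GATCaggtgagtacacaggc
Lyz2 main tag: GATCtttcttaagttccttc
Lyz2 tag at another site: GATCttgggaaacagcagtc
Lyz1 tag nearest to the Lyz2 main tag: GATCttacttaagttccttc
Lyz1 tag nearest to the other Lyz2 tag: GATCttgggaaacagcagtt

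The Chia1 main tag was counted 296698 times and made up 98.3% of the gene's 301833 counts. The Lyz2 main tag was counted 33469 times and made up 95.4% of 35096 counts. Both main tags have class code 1. The tag of Chia1 at another site, of code 2, had 1860 counts, and that of Lyz2, of code 4, had 1161.

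The Lyz1 tags bear on what the Lyz2 counts mean. With positions counted from 1 at the 5′ end and the Lyz2 base first, the Lyz1 tags shown differ from their Lyz2 counterparts by T7A and by C20T. They were counted 3 times each over the 14 libraries, the first with code 22 and the second with code 4. Each is 1 base from a Lyz2 tag and cannot be told here from a misread copy of it. The 48 tags 1 base from the Lyz2 main tag had 729 counts together. A further tag, titled by the Lyz1 reference transcript and of code 5, had 5 counts. Lyz1 thus had 3 counts of codes 1 to 4 in all. Whether Lyz1 transcripts also give the Lyz2 main tag is not settled by the sources used here, so the Lyz2 counts are uncertain as to its near-identical copy. In the gene order of the mouse assembly GRCm38.p6, Lyz1 is the next gene after Lyz2.

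Chia1 was abundant in 2 organs and close to absent in the other 5. In parotid it was counted 132240 times in the female and 116232 times in the male library, 38658 CPM [38454, 38863] and 33585 CPM [33396, 33776]. In stomach it was counted 25497 and 27817 times, 11050.2 CPM [10916, 11186] and 14469 CPM [14301, 14639]. It was thus the 4th and 5th most abundant gene of the parotid libraries and the 11th and 7th of the stomach libraries. The mean level was 36122 ± 3587 CPM in parotid and 12760 ± 2418 CPM in stomach (SD, n = 2 in each), and the pairs did not overlap.

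Parotid over stomach came to 2.83-fold on this scale, 3.50-fold between the female and 2.32-fold between the male libraries (SD 0.832, n = 2). That size depends on the scaling. Scaled by TMM factors, which align the bulk of genes between libraries, it was 6.63-fold, and by DESeq2 size factors 6.30-fold. The order of the 2 organs was the same under each.

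In the remaining tissues Chia1 was a matter of single counts. Hippocampus held 12 and 9 counts in the female and male libraries, 5.06 CPM [2.61, 8.83] and 3.56 CPM [1.63, 6.76]. Spinal cord held 4 and 2 counts, or 1.95 and 0.956 CPM. Pancreas held 20 counts in the female library, 7.23 CPM [4.42, 11.2], and 0 in the male, 0 CPM [0, 1.39]. The level of 3 counts in that male library is 1.13 CPM.

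Bone marrow and liver held 0 counts of Chia1 in all 4 libraries. The exact intervals reach up to 1.35 CPM in each marrow library and up to 1.83 and 1.12 CPM in the female and male liver libraries. Hippocampus, pancreas and spinal cord did not separate as a series. The pancreas pair spanned 0 to 7.23 CPM and so covered hippocampus and spinal cord, while hippocampus lay above spinal cord in both libraries.

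**Figure D1:**
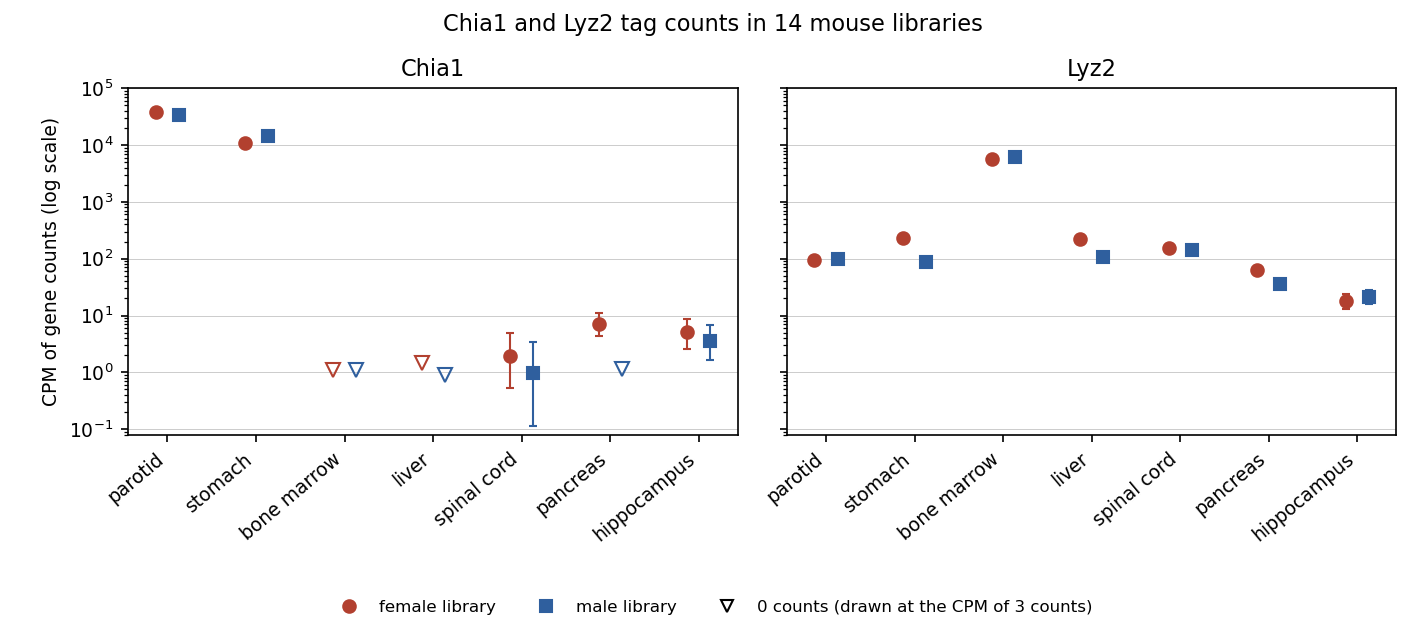
CPM of Chia1 and Lyz2 in each of the 14 libraries on a log axis, female as circles and male as squares, with exact 95% intervals of counting error, and open triangles at the level of 3 counts where the count was 0. Chia1 stands at or above 11050.2 CPM in parotid and stomach and at or under 7.23 CPM elsewhere, while Lyz2 is found in every library and is highest in the 2 marrow libraries.

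Transcripts of the salivary gland moved with the Chia1 counts in pancreas. The female pancreas library held 219 counts of Bpifa2 and the male 9. For each 100 counts of Bpifa2 there were 9.13 of Chia1 in the female pancreas, against 12.5 and 11.8 in the female and male parotid libraries. The submaxillary protein Smr3a stood at 27.8 CPM in the female pancreas and at 0 in the male, and the salivary carbonic anhydrase Car6 at 9.40 CPM and 0. Of the 14 salivary markers, 9 were detected in the female and 5 in the male pancreas. Summed, they came to 1619 CPM in female and 2090.0 CPM in male pancreas, of which the salivary amylase Amy1 made up 1490.2 and 2086 CPM; Amy1 is a near-identical copy of pancreatic amylase genes, so its count in pancreas is uncertain. The part of parotid RNA in the pancreas value was not tested.

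In hippocampus, Bpifa2 had 1 count in the female library and 0 in the male, and Pgc had 0 in both. Of the 14 salivary markers, 5 and 4 were detected there, with sums of 31.2 and 30.8 CPM, of which Amy1 made up 28.2 and 29.3 CPM. Of the 15 gastric markers found, 4 were detected in each library, with sums of 20.2 and 22.5 CPM. The part of salivary or gastric RNA in the hippocampal Chia1 counts was not tested. All 12 and 9 hippocampal counts carried the main tag. Their number is too small to say more than that the tag was present in both libraries.

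Other members of the chitinase family were looked for to see whether they shared the pattern of Chia1. Of 11 listed genes, 8 were found, Chia1 included, and Chia2, Chil5 and Chil6 were not matched to a cluster. In GRCm38.p6, Chia1 lies among its relatives, with Chil5, Pifo and Ovgp1 before it and Chil3, Chil4 and Chil6 after it. None of the 7 other family members matched the parotid level of Chia1, and each had 65 counts or fewer over the 2 libraries there.

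Chit1, chitotriosidase, the other active chitinase, was counted in stomach at 134 CPM in the female and 78.0 CPM in the male library. In marrow it stood at 5.50 and 3.67 CPM, and elsewhere at no more than 1 count a library. In stomach there were 82.2 counts of Chia1 for each count of Chit1 in the female library and 185 in the male. In parotid, against 116232 counts of Chia1, the male library held 1 count of Chit1 and the female held 0.

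The chitinase-like proteins, which bind chitin-type sugars without cutting them, were split between organs. Chil4, once named Ym2, was found in stomach alone, at 129 and 47.3 CPM in the female and male libraries, with 0 counts in the other 12. Its neighbour Chil3, or Ym1, was a marrow transcript at 38.5 and 45.5 CPM, with 1 and 2 counts in spinal cord and 0 in the other 10 libraries. The near-identical sequences of these genes could split or share tags, so their separation is uncertain.

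Chil1 stood at 73.3 and 82.2 CPM in marrow, 30.3 and 29.2 CPM in spinal cord and 7.58 and 9.89 CPM in hippocampus, with no more than 3 counts in any other library. Chid1, a chitinase-domain protein of lysosomes, was broad, from 3.25 CPM in the female pancreas to 50.1 CPM in the female hippocampus. Chitobiase, Ctbs, which trims sugar chains in lysosomes, reached 7.33 CPM and the oviduct glycoprotein Ovgp1 5.74 CPM, both in spinal cord. In these low genes single counts decide the order.

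**Figure D2:**
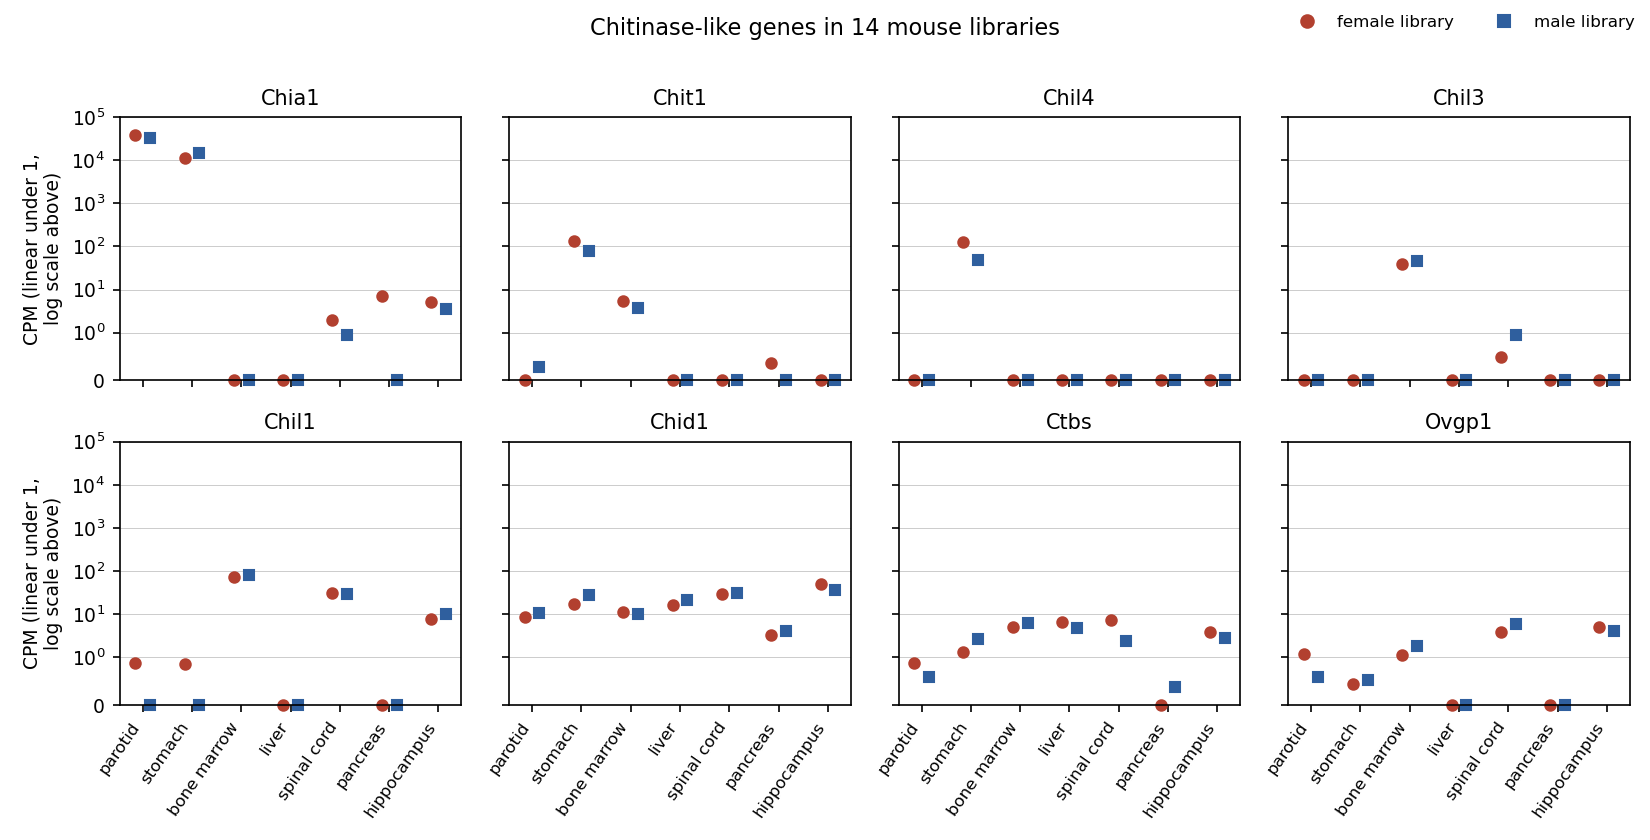
CPM of the 8 chitinase family genes found, in each of the 14 libraries, with female libraries as circles and male as squares; the axis is linear under 1 CPM and logarithmic above. Chit1 and Chil4 rise to between 47.3 and 134 CPM in stomach, where Chia1 is at 11050.2 and 14469 CPM, and all but Chia1 are at or under 10.4 CPM in parotid.

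A fit over all genes set each of parotid, stomach and marrow against the mean of the other 6 tissues, and a call needed an adjusted p under 0.05 (edgeR quasi-likelihood test, Benjamini-Hochberg) and a fold of at least 2. In parotid, 0 of the 7 other family members were called higher and 0 lower, where 11.1% and 3.87% of the 14682 genes tested were; their median difference was −0.71 on the log2 scale, against −0.016 over all genes tested. In stomach, 2 were called higher and 0 lower, where 17.9% and 3.92% of all genes were, with medians of −0.21 and 0.17 (21.8% of all genes were called in either direction). The 2 were Chit1 and Chil4, both of which passed the filter on low counts through stomach alone, so that they had to differ there and the calls add nothing to the levels above.

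In marrow, 3 of the 7 were called higher and 1 lower, against 19.6% and 14.3% of all genes, with medians of 1.38 and −0.19. Chil1 (adjusted p = 3.17e-09), Chit1 (adjusted p = 0.000488) and Chil3 were higher, and Chil3 passed the filter through marrow alone. Chit1 was called although stomach held it at 134 and 78.0 CPM, against 5.50 and 3.67 CPM in marrow. The contrast gives the log level of each tissue equal weight. Chid1 was lower by a log2 difference of −1.23 ± 0.34 (SE, adjusted p = 0.00690), and that call was lost without the male marrow library and with unscaled gene count totals. No fold is given for the other calls, because tissues at 0 counts make the fitted fold depend on the prior count. With each library at fewer than 3 counts set to the level of 3 counts, and levels averaged without further scaling, the family's medians were −3.21 in parotid, −0.72 in stomach and −0.68 in marrow. Those of all genes tested were −1.78, −0.45 and −0.52, so that the marrow median changes sign with the scale.

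Lyz2, unlike Chia1, was counted in every library, and marrow stood far above the rest. The marrow libraries held 15252 and 16681 counts, 5588 CPM [5500, 5677] in the female and 6118 CPM [6026, 6211] in the male, a mean of 5853 ± 375 CPM (SD, n = 2). It was the 11th and 10th most abundant gene there. Marrow exceeded liver, the next tissue on this scale, by 35.6-fold, 25.2-fold between the female and 57.0-fold between the male libraries (SD 22.4, n = 2).

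Below marrow, liver, stomach and spinal cord lay closest together. Liver held 446 and 355 counts, 221 CPM [201, 243] in the female and 107 CPM [96.5, 119] in the male library. Stomach held 534 and 170 counts, 231 CPM [212, 252] and 88.4 CPM [75.6, 103]. Spinal cord held 321 and 302 counts, 157 CPM [140.1, 175] and 144 CPM [129, 162].

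The means of these 3 tissues, 164 ± 80.6, 160 ± 101 and 151 ± 8.75 CPM (SD, n = 2), differed by less than the spread within the liver and stomach pairs. Parotid followed at 95.9 CPM in the female and 97.4 CPM in the male library, inside the range of the stomach pair. Pancreas stood at 64.0 and 36.2 CPM. Hippocampus was lowest, with 43 and 54 counts, 18.1 CPM [13.1, 24.4] and 21.4 CPM [16.0, 27.9].

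The order between marrow and hippocampus was not fixed by the data. With TMM factors, pancreas came next after marrow at 298 ± 72.7 CPM (SD, n = 2), followed by parotid at 173 ± 1.29, liver at 154 ± 49.0, stomach at 126 ± 85.8 and spinal cord at 61.6 ± 2.22. Marrow, at 4014 ± 108 CPM, stayed first and hippocampus, at 8.78 ± 1.03 CPM, last. Levels set between tissues also cannot tell fewer cells of a type from less RNA per cell.

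Because Lyz2 is a product of macrophages and neutrophils, its level was set beside the summed CPM of 24 macrophage and 16 neutrophil lineage markers found in the files. The macrophage sum ran from 2710 to 2935 CPM in marrow, 468 to 744 in liver, 528 to 543 in hippocampus and 519 to 528 in spinal cord. It ran from 297 to 325 CPM in stomach, 156 to 165 in parotid and 23.4 to 34.7 in pancreas. The neutrophil sum was 31358 and 29813 CPM in marrow and 481 and 391 CPM in spinal cord, and no more than 59.0 CPM in any other library. The scavenger receptor Marco was the macrophage marker at 0 in both marrow libraries.

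Lyz2 was not a fixed share of the macrophage sum. For each CPM of that sum there was 1.90 and 2.26 CPM of Lyz2 in marrow, 1.84 and 1.55 in pancreas and 0.614 and 0.590 in parotid. Liver had 0.298 and 0.229 and spinal cord 0.302 and 0.273. Hippocampus had 0.0333 and 0.0404, the lowest of the 7 tissues, while it expressed the cysteine protease cathepsin S (Ctss) at 111 and 97.7 CPM and the signalling adaptor Tyrobp at 47.2 and 48.6 CPM, both markers of microglia.

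Liver held the Kupffer cell lectin Clec4f at 162 CPM in the female and 83.2 CPM in the male, and at no more than 1 count in any library outside liver. Lyz2 and Clec4f were both higher in the female liver library. The neutrophil sum was higher there too, at 59.0 CPM against 12.1 CPM in the male. The part of either cell type in the liver value of Lyz2 was not tested.

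Spinal cord held marrow transcripts beside Lyz2. It held Ngp at 195 and 132 CPM, the calprotectin subunit S100a9 at 121 and 127 CPM and the cathelicidin Camp at 31.3 and 29.2 CPM, and Ngp was at 0 counts in the 10 libraries outside marrow and spinal cord. Of the 16 neutrophil markers, 15 were detected in the female spinal cord. There were 1.25 and 0.917 counts of Ngp for each count of Lyz2 in spinal cord, against 2.28 and 1.59 in marrow. The part of marrow RNA in the spinal cord value of Lyz2 was not tested.

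**Figure D3:**
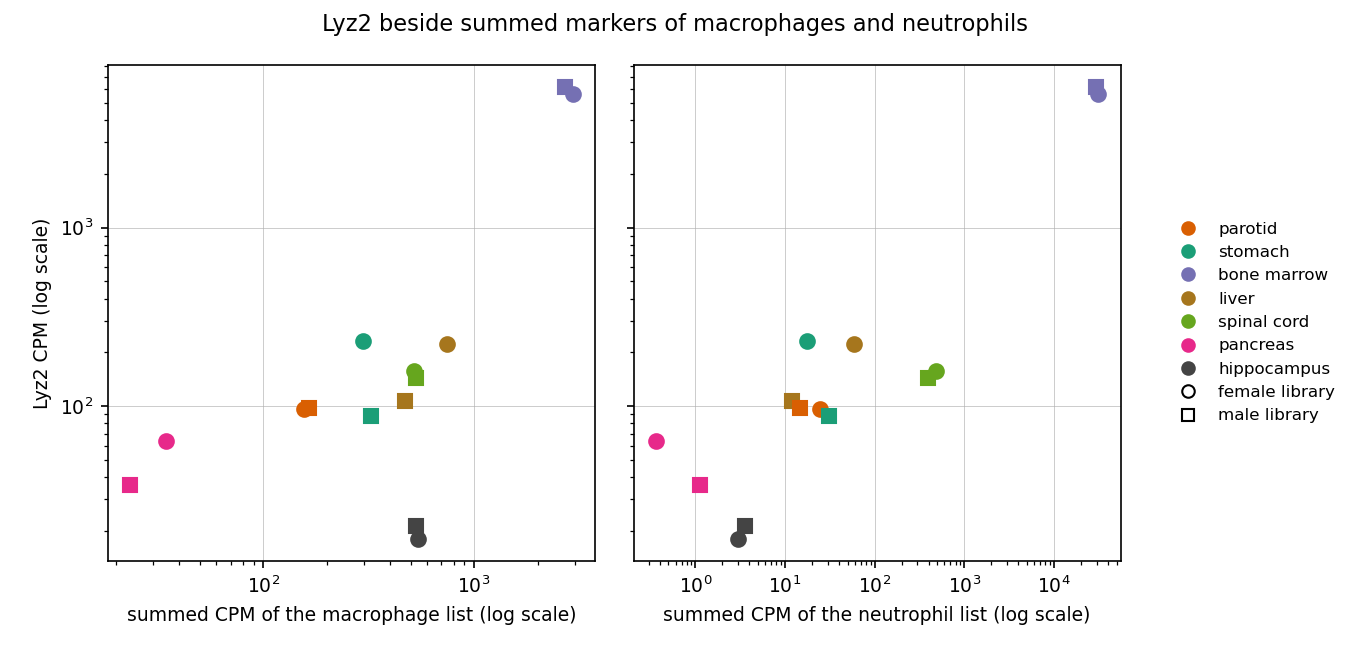
CPM of Lyz2 in each library against the summed CPM of the macrophage list (left) and the neutrophil list (right), on log axes, coloured by tissue. The hippocampus libraries lie at 18.1 and 21.4 CPM of Lyz2 beside macrophage sums of 543 and 528 CPM, the pancreas libraries at 64.0 and 36.2 CPM beside sums of 34.7 and 23.4 CPM.

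Secreted antimicrobial proteins beyond the 2 enzymes were taken as a list of 36 genes, of which 32 were found and 26 tested. In parotid, 11 of the 26 were called higher and 0 lower, against 11.1% and 3.87% of all genes tested, with medians of −0.22 and −0.016. Of the 11, 5 passed the filter through parotid alone and so had to differ. Among these 5 were the prolactin-induced protein Pip at 20606 and 27657 CPM, lactoperoxidase Lpo at 772 and 947 CPM and Dcpp1 at 3194 and 4368 CPM. Bpifa2 (adjusted p = 8.03e-12) was the most abundant of the list.

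In stomach, 4 of the 26 were called higher and 1 lower, against 17.9% and 3.92% of all genes, with medians of −1.002 and 0.17. In the same way 11 of the 26 had 0 counts in stomach and could not be called lower. The 4 called higher were Bpifb1 at 70.6 CPM in the female and 27.1 CPM in the male, the protease inhibitor Slpi at 304 and 53.6 CPM, Dmbt1 at 41.6 and 61.9 CPM and Wfdc2 at 120.5 and 34.3 CPM; Bpifb1 passed the filter through stomach alone. The contrast weights the log level of each tissue equally, so that Slpi was called although marrow held it at 295 and 223 CPM, and Dmbt1 although pancreas held it at 1282 and 1596 CPM. Lipocalin 2, Lcn2, which withholds iron from bacteria, was lower by a log2 difference of −4.04 ± 0.83 (SE, adjusted p = 0.00120), and that call was lost without the male pancreas library.

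In marrow, 13 were called higher and 2 lower, against 19.6% and 14.3% of all genes, with medians of 3.58 and −0.19. The most certain of the 13 were S100a9 at 9864 and 10820.1 CPM (adjusted p = 5.17e-13), Ngp (adjusted p = 3.70e-12), cathepsin G, Ctsg, at 463 and 517 CPM (adjusted p = 6.01e-12) and Camp at 1720 and 2185 CPM (adjusted p = 6.11e-12). Of the 13, 3 passed the filter through marrow alone. Wfdc2, with 0 counts in marrow, was lower, as was angiogenin, Ang (log2 difference −1.56 ± 0.34, SE, adjusted p = 0.00109). Of these 2 calls 1 was lost without the female marrow library. On the level scale with the 3-count floor the list's medians were −3.43 in parotid, −5.23 in stomach and 1.06 in marrow, and those of all genes as given above. The list was written with earlier results of these data known.

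Of 10 listed lysozyme family genes, 3 were found, Lyz2 included. Lyz1 had 3 counts of codes 1 to 4 in all, of the tag 1 base from a Lyz2 tag shown above. The lysozyme-like gene Lyzl4 had 11, spread over 5 libraries with at most 4 in a library, and neither was tested.

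The sexes were compared with the pairs of all 7 tissues together. Neither gene was called. Male over female came to −0.56 ± 0.51 for Chia1 (SE, adjusted p = 1.0) and −0.35 ± 0.23 for Lyz2 (SE, adjusted p = 1.0) on the log2 scale by edgeR's quasi-likelihood test. Over all genes tested, 0.0613% were called, 9 genes, with 0.0477% higher and 0.0136% lower in the male. The count was 121 without the female and 119 without the male stomach library, and 86 without both, and Chia1 and Lyz2 were uncalled there too. It was 34 without either hippocampus library, 29 and 25 without the female or male spinal cord, 18 without either pancreas, 16 without either parotid and 15 without either marrow library.

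Within tissues, Chia1 could be compared where it was abundant. In parotid the log2 of male over female was −0.21 ± 0.96 (SE, adjusted p = 1.0 by edgeR), where 0.00681% of genes were called. In stomach it was 0.26 ± 0.44 (adjusted p = 0.749), where 25.8% were called. Whether the male-to-female difference of stomach differs from that of parotid was not tested.

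Lyz2 was lower in the male stomach library, with 170 counts against 534 in the female. The main tag carried this, with 154 counts in the male against 522 in the female. Sense tags more than 1 base away from it had 16 counts in the male and 11 in the female. These few counts did not show the decrease and were not tested. For the gene as a whole the log2 of male over female was −1.52 ± 0.35 (SE, adjusted p = 0.000204 by edgeR). The difference from the other 6 tissues was −1.35 ± 0.38 (adjusted p = 0.00368). Each value rests on 1 library a sex, assumed to vary like the other pairs. In that pair 25.8% of all genes were called, 14.1% lower and 11.7% higher in the male, and 22.3% were called for the difference from the other tissues.

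Other transcripts differed between the stomach libraries as well. The acid pump subunit Atp4a stood at 1168 CPM in the female and 3238 CPM in the male, and Pgc, as given above, was also higher in the male. The macrophage sum was 297 CPM in the female and 325 CPM in the male, and Lyz2 came to 0.780 and 0.272 CPM for each CPM of it. Ctss was at 38.6 and 8.84 CPM, and Tyrobp at 13.4 and 36.4 CPM. The part of the make-up of the stomach samples in the Lyz2 difference was not tested, and with 1 library a sex it cannot be told apart from sex.

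In the other 6 tissues Lyz2 was not called, each with an adjusted p of 1.0, where between 0.0% and 0.0204% of genes were called (in liver 0.0136% higher and 0.00681% lower in the male). The log2 values of male over female were 0.055 ± 0.61 in marrow, −0.66 ± 0.62 in liver, −0.50 ± 0.63 in pancreas and −0.073 ± 0.65 in spinal cord (SE). They were 0.015 ± 0.63 in parotid and 0.24 ± 0.70 in hippocampus. The stomach pair stays in the estimate of spread for these 6 fits; in the fit that gives stomach its own sex term the standard error was 0.35.

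**Figure D4:**
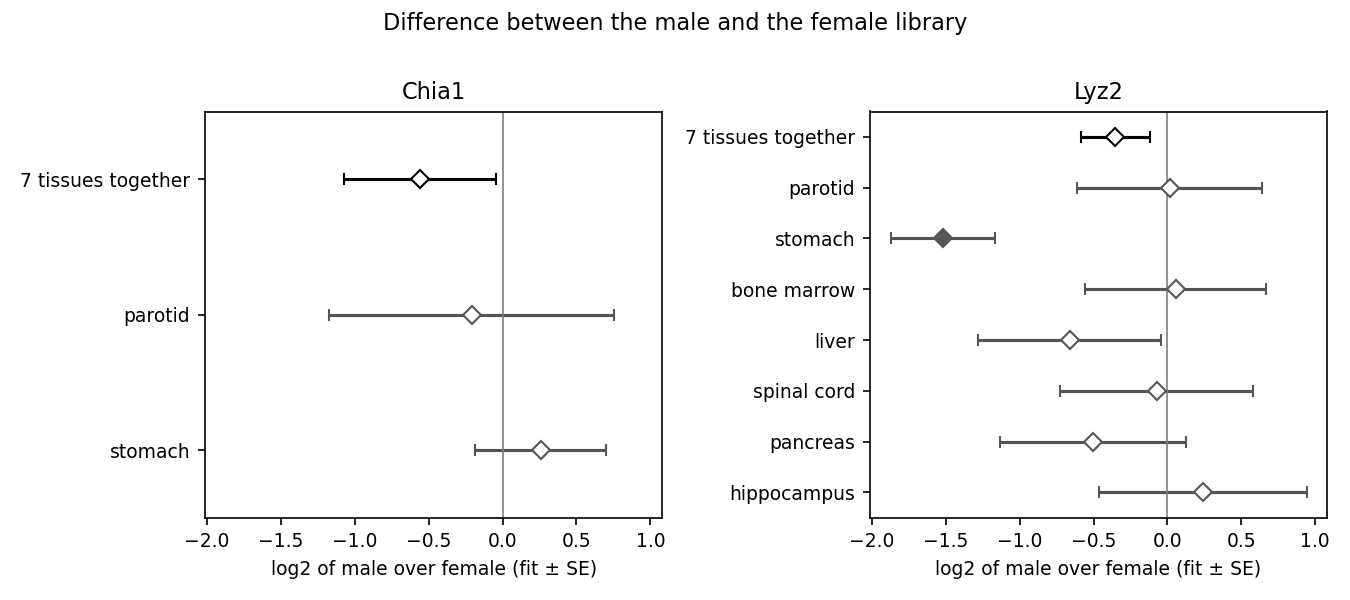
Log2 of male over female for Chia1 (left) and Lyz2 (right) from the fit over all genes, with bars of 1 standard error; filled symbols have an adjusted p under 0.05. Lyz2 in stomach, at −1.52, is the single filled symbol.

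The make-up of the tags also differed between the stomach libraries. Sense tags more than 1 base away from the main tag are mostly tags at other GATC sites. For Chia1 a few are close to the main tag, with an inserted or missing base or 2 bases changed. Together such tags made up 0.784% [0.680, 0.9005] of Chia1 counts in the female and 2.10% [1.94, 2.28] in the male stomach. In parotid they made up 1.26% [1.20, 1.32] and 1.16% [1.10, 1.22]. The code 2 tag printed above had 56 counts in the female and 381 in the male stomach, and 775 and 648 in parotid.

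The corresponding share of Lyz2 was 2.06% [1.03, 3.66] in the female and 9.41% [5.48, 14.8] in the male stomach. In marrow, where the counts are far deeper, it was 4.90% [4.56, 5.25] and 4.11% [3.82, 4.42]. For both genes the intervals of the 2 stomach libraries do not overlap, with the male higher. With the main class of tags alone, code 1, the stomach difference in Lyz2 was −1.61 (adjusted p = 0.000126 by edgeR). That setting keeps the main tag and drops the code 4 tags. It therefore cannot show whether the tags at other sites share the difference.

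Tags read as lying on the opposite strand, codes 11 to 16, were rare for both genes. They made up 2.58% of sense and reverse counts together for Chia1 and 2.41% for Lyz2, against a median of 5.84% over the 3699 genes with at least 1000 counts. The most frequent was the Chia1 reverse tag printed above, with 3004 counts, of which 1581 and 1067 lay in the female and male parotid and 182 and 171 in stomach. By organ the share for Chia1 was 2.85% [2.76, 2.94] and 2.61% [2.53, 2.71] in parotid and 1.74% [1.59, 1.91] and 1.90% [1.74, 2.06] in stomach, so that parotid lay above stomach in both sexes.

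**Figure D5:**
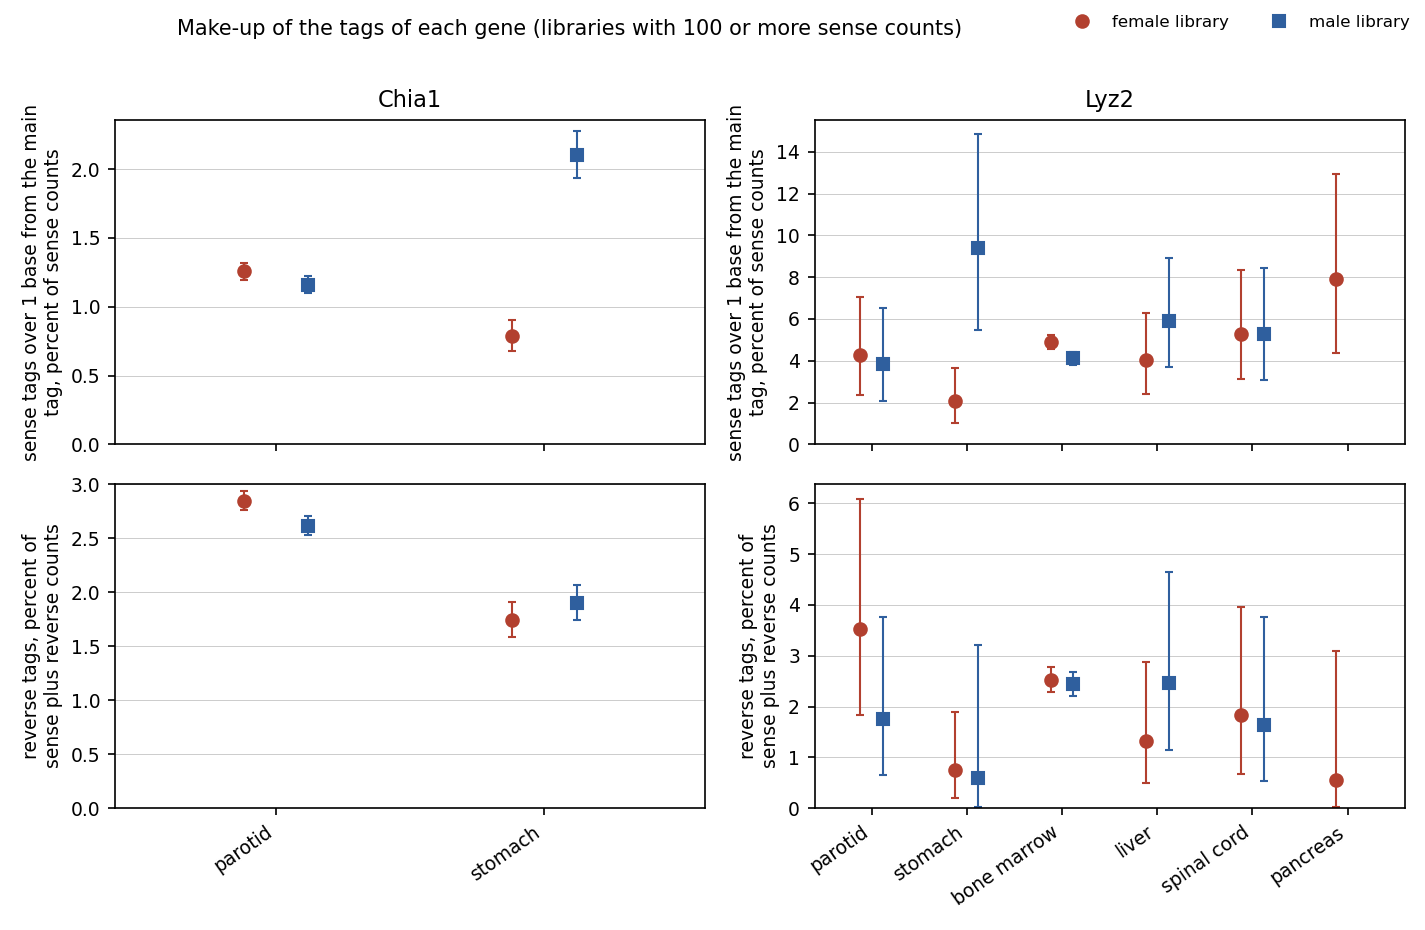
Share of sense tags more than 1 base away from the main tag (top) and of reverse tags (bottom) for Chia1 and Lyz2, in percent, in libraries with at least 100 sense counts, with exact 95% intervals of counting error. The male stomach library lies above the female in the top panels, at 2.10% against 0.784% for Chia1 and 9.41% against 2.06% for Lyz2.

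The genes most like each of the 2 in pattern were found by Pearson's r of log2(CPM + 1) over the 14 libraries, among 12290 genes with a mean of at least 10 CPM in a tissue. The libraries come in tissue pairs and are not independent points, and r is given as a description. Nearest to Chia1 were Mlph (r = 0.990), which links pigment and secretory vesicles to myosin, Lrrc26 (0.986), a potassium channel subunit, and Ehf (0.985), an epithelial transcription factor. Fbp2 (0.982), a fructose bisphosphatase, and Tmprss13 (0.978), a membrane serine protease, followed. All 5 were found in parotid and stomach at far lower levels than Chia1: Mlph at 33.6 and 33.2 CPM in parotid and 17.3 and 32.8 CPM in stomach, Lrrc26 at 90.9 and 101 CPM and 59.8 and 41.6 CPM.

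Nearest to Lyz2 were Cybb (r = 0.976) and Ncf4 (0.959), subunits of the phagocyte oxidase that makes superoxide. A cluster titled paired immunoglobin-like type 2 receptor alpha, Mm.379385 (0.958), the inflammasome protease Casp1 (0.955) and the leukocyte surface protein Cd52 (0.954) followed. Cybb stood at 394 and 400.1 CPM in marrow and, next, at 12.9 and 7.26 CPM in liver. In hippocampus it stood at 0.843 and 0.395 CPM, and Lyz2 was lowest there as well.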

How the data were processed

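Tags of 20 bases were counted in 14 libraries of total RNA. Per the labels, the deposited values are raw, unnormalized counts of distinct tags. Each tag carries a gene cluster and a class code from the authors, whose meaning is not given in the sources used here, nor are the mapping tool and builds. Codes 1 to 4 were read as sense. Counts of codes 1 to 4 were summed per cluster. Of 22221 clusters, 12097 were named through accessions and 1546 through titles. CPM divides by a library's summed gene counts; tags without assignment were 8.49% of all counts and were left out.

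Tests used edgeR 4.0.16 (R 4.3.3): TMM, filterByExpr by tissue (14682 genes kept), quasi-likelihood F tests with terms for tissue and sex (6 residual degrees of freedom; 5 with a sex term for the tissue in question). A call took an adjusted p below 0.05 together with a 2-fold change; sex over 7 tissues had no fold minimum. For sex over 7 tissues, the fit was tested on simulated data, where it missed a part of the 2-fold changes. The simulation gave all genes and all pairs of libraries the same spread, unlike the stomach pair here. Tests within a tissue and of a tissue against the others were not scored on it. DESeq2 1.42.0 and limma 3.58.1 (voom) were alternatives. Tables and figures were made in Python 3.11.15 (matplotlib 3.10.9, scipy 1.17.1, numpy 2.4.6, pandas 2.3.3). Gene order comes from RefSeq's GRCm38.p6 table.

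Named genes were the 2 genes, every family member found, up to 4 antimicrobial genes per comparison and direction by smallest adjusted p, up to 4 of the most abundant markers of each cell type list, and the 5 genes most alike in pattern. Markers named beyond these (Atp4a, Marco) were chosen after their values were seen. The members and lists were chosen with earlier results of these data known.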

Additional observations from a re-analysis of the deposited data

Results flagged for a closer look

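The difference between male and female Lyz2 in stomach was set apart from that elsewhere: it lay −1.35 (log2) from the other 6 tissues, which is a tested difference between tissues; 22.3% of all genes tested were called for such a difference, in either direction, in that pair of libraries.

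Several kinds of tag of the 2 genes lie outside the counts used for levels. Chia1 had 7992 counts of reverse tags, 140 counts of tags at other positions (codes 5 and 6), 21 counts of tags with codes 21 to 26, and 6971 counts of unassigned tags 1 base away from its main tag. Lyz2 had 866 counts of reverse tags, 188 counts of tags with codes 21 to 26 and 504 counts of unassigned tags 1 base away from its main tag. All 48 possible tags 1 base away from the main tag, GATC site kept, were seen for each gene. Assigned and unassigned together, they came to 2.89% of the main tag's counts for Chia1 and 2.18% for Lyz2. Lyz2 was counted in every library, so no library serves as a control for it. The libraries with 0 sense counts of Chia1 held 1 and 2 of its reverse counts in female and male marrow. They held 0 in both liver libraries and in the male pancreas. The unassigned tags were not split by library. The values are given against a count of 0.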

How the results depend on the processing

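No alternative moved Lyz2 in stomach across the threshold: the log2 of male over female lay between −1.61 and −1.39, and between −1.58 and −1.53 with any single library of another tissue left out. Lyz2 in parotid, 0.015, turned to −0.013 without the filter on low counts and ran from −0.0097 to 0.017 with single libraries left out. Over 7 tissues, Chia1 ran from −0.77 to −0.17 and Lyz2 from −0.45 to −0.17 with single libraries left out. The 9 genes called by sex became 5 with DESeq2, 3 with voom, 63 without the filter, 5 with code 1 alone and 86 without both stomach libraries (chosen after seeing the data), and 9 to 121 with single libraries left out. Chia1 in parotid over stomach was 6.63-fold with TMM and 6.30-fold with DESeq2 size factors, and 2.50 to 3.27-fold with single libraries left out; Lyz2 in marrow over liver was 26.4 to 54.5-fold.

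Chitinase family calls changed as follows. Lower in parotid came to 2 with voom. Higher in stomach came to 1 with DESeq2 and 1 with code 1 alone, and lower to 2 with voom. Higher in marrow came to 1 with code 1 alone. Lower in marrow came to 0 with unscaled totals and with code 1 alone, and to 2 with voom. Antimicrobial calls lower in parotid came to 3 with unscaled totals, 1 with DESeq2 and 8 with voom. Lower in stomach came to 13 with voom. Lower in marrow came to 1 with unscaled totals, 6 with DESeq2 and 11 with voom. With single libraries left out, antimicrobial calls lower in parotid ran from 0 to 1, lower in stomach from 0 to 1 and lower in marrow from 1 to 2, and chitinase calls lower in marrow from 0 to 1. Of the 5 genes most like Chia1, 1 stayed with Spearman's rho and 3 in male libraries alone; of those most like Lyz2, 1 stayed with Spearman's rho, 1 with a pseudocount of 10, 2 in female and 2 in male libraries alone. A minimum of 100 CPM left 0 and 2, by construction, since it removes the others from the genes compared. For the other changes the cause was not tested. Over all results and alternatives, 485 values stayed within their tolerance, which was the same direction and side of the threshold for a test, within 1.5 times for a count and within the SD of the female and male ratios for a ratio. A further 46 moved past it and 5 changed sign, all 5 of them Lyz2 in parotid.

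The fit pairs the female and male library of each tissue through its tissue term. The labels give no replicate numbers, so no further block was fitted. Where counts are under about 20, counting error limits what can be said.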
